A study of Caenorhabditis elegans with 32 samples.

Results

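In early Caenorhabditis elegans embryos, 659 windows of 500 bp passed a set H3K27ac enrichment after heat. Their mean stayed under set limits in unheated wild-type (WT) embryos and in unheated embryos that lack MET-2. They are called heat-only windows here, a name for these limits, which do not exclude a smaller gain without MET-2. They were chosen from H3K27ac ChIP-seq of embryos before the bean stage, which covered WT worms (N2, the Bristol strain) exposed to 37 °C (HS), met-2Δ worms (the deletion allele met-2(n4256) III), met-2-CD worms (met-2(gw1660) III, a point mutation in the catalytic SET domain) and WT worms, the last 3 at 20 °C, with 3 immunoprecipitated (IP) and 3 input libraries per group. H3K9me2 ChIP-seq came from WT embryos at 37 °C and at 20 °C, with 2 IP and 2 input libraries each. The labels give 1 h of heat for both experiments, and the study's text gives that time in one place and a shorter one in another for H3K27ac. Neither mutant was heated, and no H3K9me2 library came from a mutant. The study calls the replicates biological but no source says how separate their cultures were, so the tests measure the spread between these libraries.

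The enrichment of a window was log2((IP + 2)/(input + 2)) between the IP and input libraries of the same replicate, after each library was scaled by its reads on the nuclear chromosomes. A heat-only window had an enrichment of at least 1 in each of the 3 HS pairs, a mean under 0.5 in WT, a mean under 1 in met-2Δ and, averaged over the 12 inputs, 10 or more scaled reads. The 659 windows covered 329.5 kb and were 0.336% of the 196122 windows that passed the input minimum, called eligible windows here, of 200551 nuclear windows in all. Among the 679 windows that met the HS, WT and input limits, 20 had a mean of at least 1 in met-2Δ and were left out. The mirror rule, with an enrichment of at least 1 in each met-2Δ pair and a mean under 1 in HS, gave 9 windows. Because the HS, met-2Δ and WT enrichments chose the windows, those values are given as a description.

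H3K27ac is an acetylation of histone H3 that marks active promoters and enhancers and is laid down by the CBP and p300 family of acetyltransferases. H3K9me2 is a methylation of the same histone tail that marks silent chromatin. In worm embryos MET-2, the homologue of mammalian SETDB1, deposits H3K9me2, which is most abundant on the distal arms of the autosomes and at repeats. The canonical heat shock response activates stress genes through HSF-1 and dampens other transcription. In heat-shocked early embryos, however, the study's RNA-seq found many more genes raised than lowered. The study describes this derepression as reaching beyond the HSF-1 program. The windows lie on the ce10 assembly, and no annotation or genome of that build was used here, so they are given by position only.

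The H3K27ac libraries held 16494440 to 63499122 nuclear reads and the H3K9me2 libraries 6671338 to 85333594. Both mates of a read pair were counted, so reads are not independent molecules. In the H3K9me2 experiment the mitochondrial genome took 4.44% of the reads of the 20 °C replicate 2 input. In the other input libraries it took 32.0% to 45.0%. The HS pairs had a wider range of enrichments than most other pairs. Their SD over eligible windows was 0.77 to 0.93, against 0.45 to 0.62 in met-2Δ, 0.51 to 0.78 in met-2-CD and 0.58 to 0.68 in WT. The part of this wider range in the choice of windows was not tested.

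In HS, the heat-only windows had less H3K27ac than the sites already marked in WT. The first set had a lower limit of 1 in the HS pairs and the second in the WT pairs, so the choice bears on this comparison. The median enrichment over the 659 windows was 1.29, 1.41 and 1.27 in the HS pairs, 0.34, 0.52 and 0.32 in the met-2Δ pairs, 0.37, 0.37 and 0.50 in the met-2-CD pairs and 0.29, 0.24 and 0.23 in the WT pairs. Each HS median lay above all the others, and the medians of both mutants lay above those of WT. The rule held WT lowest, under 0.5, so that order follows in part from the choice of windows. In unused replicates the order of the mutants and WT was not always kept, as given below. At the 8125 windows that reached 1 in each WT pair, the medians averaged 1.74 ± 0.05 in HS and 1.57 ± 0.11 in WT (SD, n = 3 each). Over all eligible windows they averaged -0.45 ± 0.06 in HS, -0.21 ± 0.09 in met-2Δ, -0.27 ± 0.15 in met-2-CD and -0.26 ± 0.06 in WT (SD, n = 3 each), so the typical heat-only window was also above the genome level in WT.

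**Figure D1:**
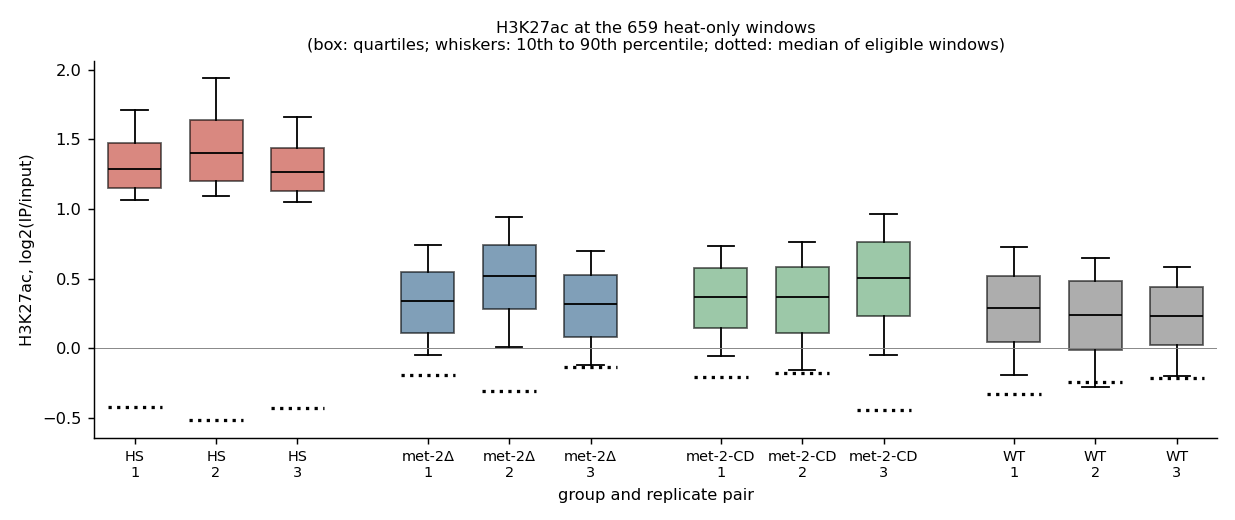
Distribution of H3K27ac enrichment, log2(IP/input), over the 659 heat-only windows in each of the 3 replicate pairs of HS, met-2Δ, met-2-CD and WT. Boxes span the quartiles with the median as a line, whiskers run to the 10th and 90th percentiles, and dotted lines give the median of the eligible windows of the same pair. The HS boxes start above 1 by the rule, and the boxes of both mutants and of WT overlap each other.

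The gain lay in the IP libraries and not in the inputs. A typical heat-only window held 352 ± 23.7 scaled IP reads in HS, 177 ± 15.8 in met-2Δ, 180 ± 11.9 in met-2-CD and 168 ± 3.43 in WT (SD, n = 3 each). The scaled input reads were 139.6 ± 3.32 in HS and 140.2 ± 1.37 in WT (SD, n = 3 each). The windows took 0.860% ± 0.069 of the IP reads in HS and 0.400% ± 0.0075 in WT (SD, n = 3 each). In edgeR's quasi-likelihood test of the IP counts, 621 of the 659 windows were higher in HS than in WT at an adjusted p under 0.01, beside 4.17% of all eligible windows. The rule used that contrast, so the count is a description. Only 25 members had a mean scaled input under 50 reads, and in these the HS input was lower than the WT input, with a median log2 ratio of -0.36, against -0.02 in the 582 members with at least 100 reads.

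A window chosen on a pair of replicates was usually enriched in the HS pair that had not been used. The rule was applied 3 times with the pairs of 1 replicate number left out of every group. Without replicates 1, 2 and 3, 584, 566 and 550 of the chosen windows were among the 659 members. The HS pairs share the wide range given above, and the eligible windows were not matched for HS level. The shares below thus describe only how well the HS libraries repeat each other. With replicate 1 left out, 755 of 1127 chosen windows (67.0%) reached an enrichment of 1 in the unused HS pair, beside 8.09% of eligible windows. With replicate 2 left out it was 694 of 919 (75.5%, beside 9.49%), and with replicate 3 left out 618 of 973 (63.5%, beside 8.27%). The unused HS pair was above the unused WT pair in 91.6%, 95.0% and 96.1% of the windows chosen without replicates 1, 2 and 3, beside 42.8%, 37.4% and 39.2% of eligible windows. The median difference between these unused pairs was 0.673, 0.936 and 0.875, against 1.09 between the HS and WT means of the 659 members. Unused WT pairs had medians of 0.426, 0.382 and 0.262, beside 0.369, 0.524 and 0.275 in met-2Δ and 0.388, 0.354 and 0.449 in met-2-CD. Both mutants lay above WT only without replicate 3.

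Values close to the limits show how narrow they are. The member nearest the HS limit, on chromosome III from 9394063 to 9394562, had enrichments of 1.07, 1.00 and 1.07 in HS, and the nearest window left out, on chromosome III from 6709075 to 6709574, had 1.20, 0.9994 and 1.00. Nearest the WT limit, a member on chromosome III from 7183573 to 7184072 had a WT mean of 0.4995 and a window left out on chromosome I from 14668939 to 14669438 had 0.5002. The member nearest the met-2Δ limit, on chromosome II from 2204504 to 2205003, had a met-2Δ mean of 0.9998, and a window on chromosome III from 11114556 to 11115055 was left out with 1.03. At the input limit, a member on chromosome V from 6715447 to 6715946 had 10.2 scaled input reads and a window left out on chromosome V from 6499948 to 6500447 had 9.22.

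The scale of the libraries also moved the limits. When libraries were scaled by the reads in windows with a mean enrichment under 0.5 in every group, all enrichments rose, by a median of 0.50 in HS, 0.26 in met-2Δ, 0.33 in met-2-CD and 0.33 in WT. The rule then gave 1740 windows, of which 194 were among the 659. On that scale the median of the 659 windows was 1.83 in HS, 0.64 in met-2Δ, 0.75 in met-2-CD and 0.63 in WT, so the groups kept their order and met-2Δ came close to WT. A single library also mattered: without HS replicate 3 the rule gave 1040 windows.

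Most heat-only windows stood alone, and a minority formed short domains. The 659 windows made 500 runs of adjacent members, of which 401 (80.2%) were a single window, 68 held 2 windows and 31 held 3 or more. Those 31 runs held 122 windows. The longest run was 9 windows (4.5 kb) on chromosome V from 18692896 to 18697395. Its mean enrichment was 1.71, 1.46 and 1.75 in HS, 0.11, 0.29 and 0.14 in the met-2Δ pairs, -0.11, 0.10 and 0.01 in the met-2-CD pairs and -0.07, 0.10 and 0.04 in WT. The run was acetylated in each HS pair. The met-2-CD and WT pairs overlapped around 0, and the met-2Δ pairs lay a little above both. Over its length the IP libraries held 3869, 3119 and 3793 scaled reads in HS and 1052, 1201 and 1122 in WT.

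The second longest run, 7 windows (3.5 kb) on chromosome III from 12995048 to 12998547, had the highest HS mean of the 6 longest runs. Its mean enrichment was 1.78, 1.84 and 1.66 in HS, -0.01, -0.07 and 0.08 in the met-2Δ pairs, -0.08, -0.10 and -0.19 in the met-2-CD pairs and 0.09, -0.33 and 0.03 in WT. Every HS pair lay above every pair of the other groups, and WT overlapped each of the mutants, while the met-2Δ pairs lay above the met-2-CD pairs. A run of 6 windows on chromosome II from 8457978 to 8460977 differed in that both mutants also sat higher: it had 1.75, 1.89 and 1.44 in HS, 0.42, 0.77 and 0.68 in the met-2Δ pairs, 0.62, 0.53 and 0.93 in the met-2-CD pairs and 0.59, 0.17 and 0.31 in WT. The mutant and WT pairs overlapped there.

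The 6 runs named take 2 of 5 runs that tied at 5 windows, those with the highest mean in HS. The other 3 were 6 windows on chromosome III from 9056065 to 9059064, 5 windows on chromosome X from 160237 to 162736 and 5 windows on chromosome III from 13448546 to 13451045. Their HS means were 1.63 ± 0.27, 1.66 ± 0.17 and 1.56 ± 0.14, and their WT means were 0.34 ± 0.18, 0.26 ± 0.08 and 0.30 ± 0.10 (SD, n = 3 pairs each). The run at 13448546 belonged to a cluster of 11 members within 8.5 kb, from 13443546 to 13452045. A cluster of 10 members lay within 10 kb on chromosome IV from 15036280 to 15046279, and the longest run lay in a cluster of 10 members on chromosome V from 18690396 to 18697395.

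**Figure D2:**
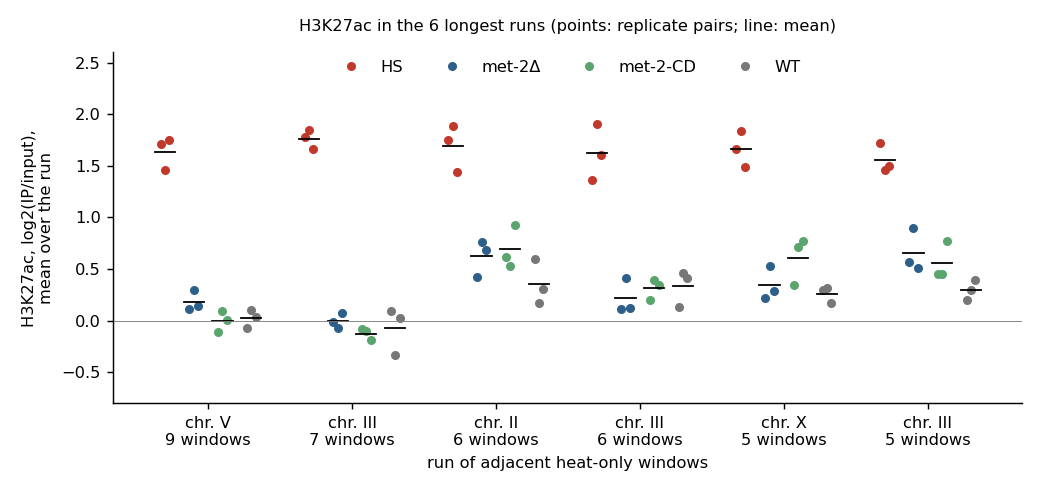
H3K27ac enrichment, log2(IP/input), averaged over each of the 6 longest runs of adjacent heat-only windows, with 1 point per replicate pair and the mean as a line, for HS, met-2Δ, met-2-CD and WT. In the runs of 9 and 7 windows the mutants and WT lie near 0, and in the runs of 6 windows on chromosome II and of 5 windows they lie between 0.17 and 0.93, below every HS point.

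The largest differences between HS and WT came mostly from windows with few reads. Of the 6 members with the largest difference in mean enrichment, 4 had a mean scaled input of 10.3 to 26.1 reads, against a median of 140.9 over all members. The largest difference, 2.50, was on chromosome IV from 14479782 to 14480281, with 4.30, 3.74 and 7.82 scaled input reads in HS and 14.7, 21.1 and 21.04 in WT. Its IP reads were 23.4, 20.0 and 30.7 in HS and 7.61, 13.99 and 14.6 in WT, so both the IP and the input libraries differed. The other 2 of the 6 lay inside the longest runs. The window on chromosome V from 18694396 to 18694895 held 405, 285 and 381 scaled IP reads in HS and 96.3, 84.0 and 73.8 in WT, with a difference in enrichment of 2.18. The window on chromosome III from 12995548 to 12996047 held 557, 640 and 482 scaled IP reads in HS and 137, 116 and 124 in WT, with a difference of 2.08. In both, the inputs of HS and WT overlapped.

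Heat-only windows lay beside acetylated chromatin far more often than low-WT windows in general, mostly with an acetylated window on 1 side or none. A window with a mean WT enrichment of at least 1 was the direct neighbour of 190 members (28.8%), lay 2 to 10 windows away for 307 (46.6%) and farther for 162 (24.6%). Among the 172838 eligible windows with a mean WT enrichment under 0.5, the same shares were 1.25%, 26.1% and 72.6%. The median distance was 1500 bp for members and 11000 bp for these windows. Within 2 kb, 39 members (5.92%) had such a window on both sides, 346 (52.5%) on 1 side and 274 (41.6%) on neither, beside 0.438%, 10.5% and 89.1% of the low-WT eligible windows.

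The HS values by distance are given as a description, since the rule set their lower limit. The median enrichment was 1.32 in HS and 0.17 in WT at the 162 members more than 10 windows (5 kb) away, and 1.33 in HS and 0.38 in WT at the 190 direct neighbours. The WT limit of 0.5 and the smooth shape of the signal both bear on the nearness to WT sites, and their part in it was not tested.

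Averaged over the 500 runs, the HS signal formed a single broad peak. It was 1.34 in the middle window, 1.08 and 1.09 at 1 kb on the left and right, 0.69 at 2 kb on each side and -0.04 at 10 kb. In WT the middle window averaged 0.25, below the shoulders of 0.50 and 0.48 at 1 kb, so the windows sat in a dip between or beside weak WT signal. The rule limits the middle window in WT and so fixes part of that dip. The dip was shallower in both mutants, but the rule limited met-2Δ less than WT and did not limit met-2-CD. That difference from WT thus follows in part from the rule. Around a middle window of 0.40 the met-2Δ signal was 0.50 and 0.47 at 1 kb, and met-2-CD had 0.42 in the middle and 0.51 and 0.49 at 1 kb. At 5 kb the HS signal was 0.17 and 0.27 on the left and right, against -0.01 and 0.05 in WT. Other runs and windows acetylated in WT can lie at that distance, and their part in these values was not tested. The mean H3K9me2 enrichment around the runs was nearly flat at 37 °C, with 0.18 in the middle window and 0.08 and 0.15 at 10 kb, while at 20 °C it was 0.29 in the middle window and -0.38 and -0.32 at 10 kb.

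**Figure D3:**
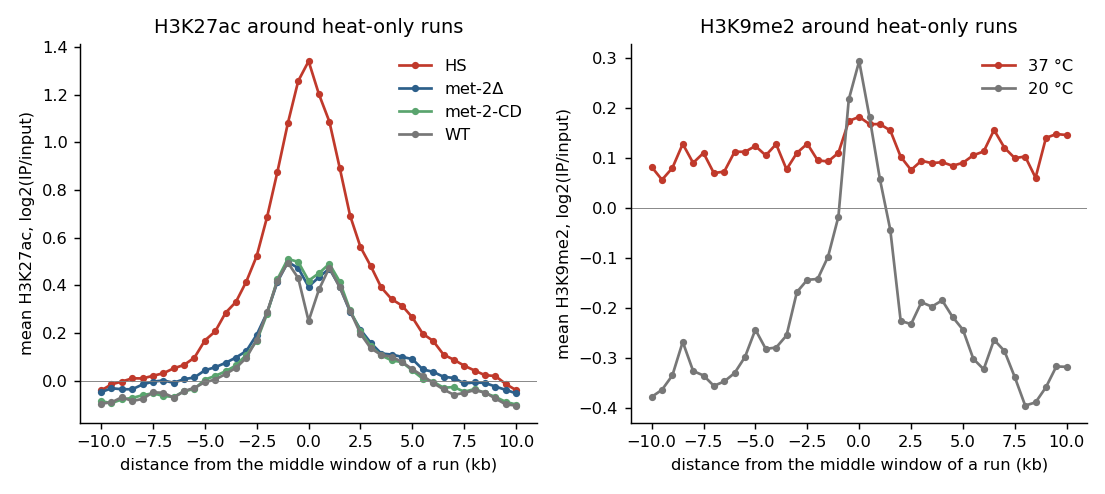
Mean H3K27ac enrichment in HS, met-2Δ, met-2-CD and WT on the left and mean H3K9me2 enrichment at 37 °C and 20 °C on the right, in eligible windows up to 10 kb from the middle window of the 500 runs of heat-only windows. HS peaks at 1.34 in the middle window while the mutants and WT dip between shoulders near 0.5, and H3K9me2 at 20 °C rises to 0.29 in the middle window above -0.38 and -0.32 at 10 kb.

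Heat-only windows were unevenly spread over the chromosomes. Chromosome III held 154 of them, chromosome I 143, chromosome IV 132, chromosome V 97, chromosome II 89 and the X chromosome 44. Per 10000 eligible windows, the density was 56.9 on chromosome III, 48.3 on I, 38.8 on IV, 29.7 on II, 23.95 on V and 12.6 on X. The X chromosome held 6.68% of the members, 17.8% of the eligible windows and 13.6% of the windows with H3K27ac in WT.

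The members were thinned out in the middle of the chromosomes. On the autosomes, 146 of 615 members (23.7%) lay in the middle of 3 equal parts of the chromosome length, beside 33.6% of eligible windows and 37.1% of the windows with H3K27ac in WT. On the X chromosome it was 5 of 44 (11.4%), beside 33.6% and 37.6%. Chromosome V was an exception, with 34 of 97 members (35.1%) in its middle part. The autosomes were also cut into 10 equal bins by length and pooled. From left to right, the bins held 68, 79, 38, 55, 39, 34, 59, 57, 92 and 94 members. The last 2 bins held 15.0% and 15.3% of them, and the 2 bins on either side of the midpoint 6.34% and 5.53%. The decline toward the middle was uneven, since a bin of the left part, with 38 members (6.18%), was about as low. Adjacent members are not independent sites, and no test was run on positions.

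**Figure D4:**
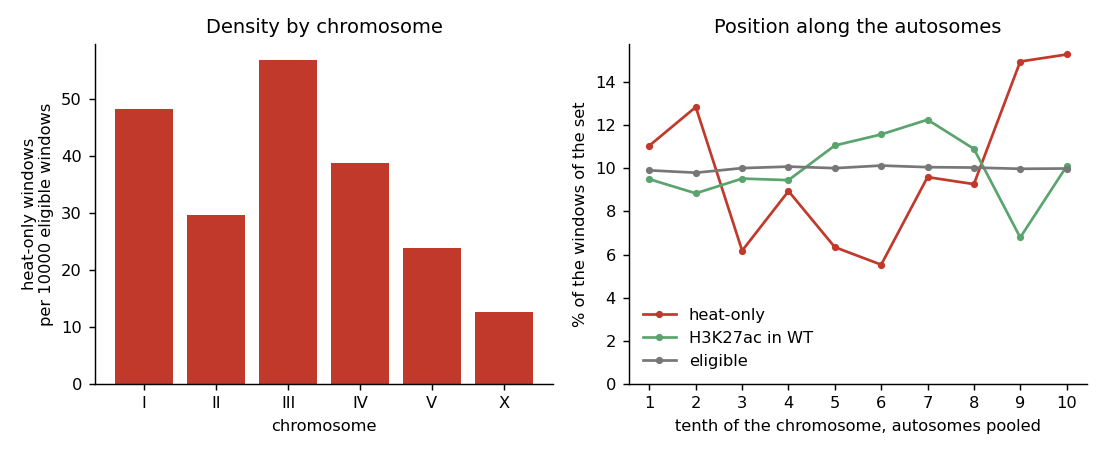
Heat-only windows per 10000 eligible windows on each chromosome on the left, and the percentage of heat-only windows, of windows with H3K27ac in WT and of eligible windows in each of 10 equal bins of the chromosome length, autosomes pooled, on the right. The density runs between 12.6 on X and 56.9 on chromosome III, and the heat-only share is highest in the last 2 bins, at 15.0% and 15.3%.

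The met-2-CD libraries were not used by the rule beyond the input minimum, so their own IP over input is an independent reading of the same windows. H3K27ac was weakly enriched there in met-2-CD. The median over the 659 windows averaged 0.41 ± 0.08 (SD, n = 3 pairs), beside -0.27 over all eligible windows and -0.34 over the low-WT eligible windows. WT, which the rule kept low, was also above its genome level there. Its median averaged 0.25 ± 0.03 (SD, n = 3 pairs), beside -0.26 over eligible windows. The median difference of met-2-CD and WT over the members was 0.15. The unmatched shares and medians of all windows leave out nearness to windows with a mean WT enrichment of at least 1. Directly beside such windows, the median met-2-CD mean was 0.48 at members and 0.34 at low-WT eligible windows. At 2 to 10 windows away it was 0.41 and -0.16, and farther away 0.27 and -0.435. The enrichment was above 0 in each met-2-CD pair at 465 members (70.6%, beside 18.4% of eligible windows). The mean reached 1 at 8 members (1.21%), beside 5.72% of eligible windows, which include the sites acetylated in WT, and 0.034% of low-WT eligible windows. By edgeR's quasi-likelihood test of IP against input, 259 of 659 members (39.3%) were enriched in met-2-CD at an adjusted p under 0.01 and 0 were depleted, beside 12.3% of eligible windows enriched and 21.1% depleted. The median log2 ratio of IP to input was 0.42 over the members and -0.31 over eligible windows. At an unadjusted p under 0.05, 417 were enriched and 8 depleted (63.3% and 1.21%, beside 15.6% and 44.2% of eligible windows). DESeq2 called 431 enriched and 0 depleted (65.4% enriched, beside 17.0% enriched and 4.06% depleted), and with TMM scaling edgeR called 428 (64.9%, beside 16.6%). Without met-2-CD replicate 3, whose enrichments spread most widely in that group, 80 members were called (12.1%, beside 8.49%).

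Members with more H3K27ac in met-2-CD had more in met-2Δ too. Over the 659 members, the mean enrichments of met-2-CD and met-2Δ correlated with Pearson r = 0.72 and those of met-2-CD and WT with r = 0.59. These are correlations across windows, which are not independent and come from the same libraries, and the limits of the rule narrow the ranges of met-2Δ and WT. The median difference of met-2-CD and met-2Δ was 0.02, with 349 members higher in met-2-CD. Every HS pair lay above every met-2-CD pair at 627 members (95.1%, beside 8.28% of eligible windows), and the HS side of that count was fixed by the rule.

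Against WT, no member was called in met-2-CD. In edgeR's quasi-likelihood test of the IP counts, 0 of 659 members were called at an adjusted p under 0.01 in either direction, beside 0.0138% of eligible windows higher and 0.00561% lower. At an unadjusted p under 0.05, 70 members were higher and 3 lower in met-2-CD (10.6% and 0.455%, beside 2.19% and 1.92% of eligible windows). DESeq2 called 0, beside 0.00969% of eligible windows higher and 0.00408% lower. The 3 met-2-CD pairs lay above the 3 WT pairs at 67 members (10.2%, beside 4.05%). In met-2Δ, 13 members (1.97%) were higher than in WT and 0 lower by the same edgeR test, beside 0.157% and 0.0286% of eligible windows. At an unadjusted p under 0.05 it was 87 higher and 15 lower (13.2% and 2.28%, beside 5.12% and 2.88%). DESeq2 called 4 higher and 0 lower (0.607% and 0%, beside 0.0948% and 0.0408%). WT was chosen to be low at these windows, so nothing is read from these counts.

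Single windows show the range in met-2-CD. The highest met-2-CD means were on the X chromosome from 17464163 to 17464662 (1.20, 1.06 and 1.27 in the pairs), on X from 15339172 to 15339671 (1.23, 1.17 and 0.94) and on chromosome IV from 2670833 to 2671332 (0.77, 1.11 and 1.31). At the first of these the HS pairs had 1.18, 1.13 and 1.10 and the WT pairs 1.15, 0.39 and -0.08, so HS, met-2-CD and 1 of the WT pairs overlapped. The lowest met-2-CD means were on chromosome III from 6573575 to 6574074 (-0.50, -0.72 and -0.54), on chromosome I from 355500 to 355999 (-0.57, -0.06 and -0.91) and on X from 17311163 to 17311662 (-0.14, -1.06 and -0.13). The first and last of these had only 13.6 and 21.8 scaled input reads on average.

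The 20 windows set aside by the met-2Δ limit carried more H3K27ac in met-2-CD too. Their medians averaged 0.91 ± 0.24 in met-2-CD (SD, n = 3 pairs). The met-2-CD pairs lay above the WT pairs at 14 of the 20 (70%, beside 4.05% of eligible windows and 4.4% of low-WT eligible windows). The set is small, met-2Δ chose it, and the rule kept WT low in it, which favours the mutants over WT.

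H3K9me2 was measured in other libraries, none of which the rule used. At 20 °C the heat-only windows carried more H3K9me2 than the genome, in both replicates. Their median enrichment was 0.57 and 0.31 in the 20 °C pairs, beside -0.86 and -0.27 over eligible windows. The mean of the 20 °C pairs was at least 1 at 186 members (28.2%, beside 10.9% of eligible windows). In replicate 1 alone it was 250 members (37.9%, beside 16.5%), in replicate 2 alone 156 (23.7%, beside 8.01%), and in both replicates 97 (14.7%, beside 5.48%). H3K9me2 domains, runs of at least 3 windows with a mean enrichment of at least 1 at 20 °C, held 106 members (16.1%), beside 5.81% of eligible windows and 4.30% of the windows with H3K27ac in WT. The excess was not particular to heat-only windows. Of the 20 windows set aside by the met-2Δ limit, 15 (75%) had a 20 °C mean of at least 1 and 8 (40%) lay in domains.

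Position and H3K9me2 moved together but the excess was seen on arms and centres alike. On the autosome arms, the outer 2 of the 3 equal parts, 159 of 469 members (33.9%) had a mean of at least 1 at 20 °C, beside 17.2% of the low-WT eligible windows there. In the central parts it was 12 of 146 (8.22%), beside 2.22%. On the X arms it was 13 of 39 (33.3%), beside 6.63%. Most heat-only windows were nevertheless not H3K9me2 sites: 473 of the 659 had a mean under 1. The median H3K27ac enrichment in met-2-CD was 0.43 at the 186 members at or above 1 and 0.41 at the 473 below.

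At 37 °C the excess was smaller. The median enrichment was 0.20 and 0.34 in the 37 °C pairs, beside 0.04 and 0.27 over eligible windows. The mean was at least 1 at 77 members (11.7%, beside 7.25%), and both pairs were at least 1 at 42 (6.37%, beside 3.91%). Over the members, the medians at 37 °C and 20 °C overlapped, with a mean difference of -0.17 between 37 °C and 20 °C (two-sided exact permutation test, p = 0.667, where 2 libraries against 2 cannot go below p = 0.333). Over all eligible windows the difference was 0.72, in the other direction (p = 0.333 by the same exact test). When library totals included the mitochondrial genome, the median of the members' means was 0.97 at 37 °C and 0.78 at 20 °C, against 0.29 and 0.47 with nuclear totals, so the direction over the members depends on the scaling.

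The 20 °C libraries differed from each other more than the 37 °C libraries did. Eligible windows ran between -3.14 and 1.44 (the 10th and 90th percentiles) in 20 °C replicate 1 and between -1.13 and 0.87 in 20 °C replicate 2, against -0.66 to 0.81 and -0.64 to 1.11 in the 37 °C replicates. Replicate 1 at 20 °C thus had the widest range. The input of 20 °C replicate 2 stood apart in another way, with 85333594 nuclear reads and 4.44% of its reads mitochondrial. The other H3K9me2 inputs held 6671338 to 13775558 nuclear reads, with 32.0% to 45.0% of their reads mitochondrial. The fitted median log2 ratio of the IP reads at 37 °C to those at 20 °C was -0.31 over the members and 0.43 over eligible windows with all libraries, -0.05 and 0.12 without 20 °C replicate 1, and -0.51 and 0.96 without 20 °C replicate 2. The typical heat-only window held 203 and 201 scaled H3K9me2 IP reads at 37 °C, and 280 and 204 at 20 °C. Both 37 °C pairs were below both 20 °C pairs at 164 members (24.9%, beside 9.59% of eligible windows), and above them at 135 (20.5%, beside 50.2%).

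**Figure D5:**
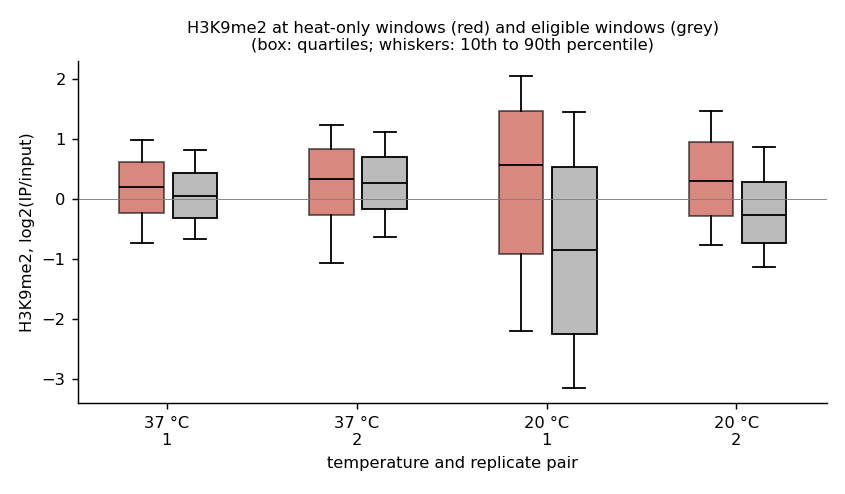
Distribution of H3K9me2 enrichment, log2(IP/input), in each of the 2 replicate pairs at 37 °C and at 20 °C, over the 659 heat-only windows (red) and over eligible windows (grey). Boxes span the quartiles with the median as a line and whiskers run to the 10th and 90th percentiles. The red medians at 20 °C, 0.57 and 0.31, lie above the grey ones, -0.86 and -0.27, and the 37 °C medians lie closer together.

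The members marked at 20 °C had less H3K9me2 at 37 °C, as marked windows did in general. At the 186 members with a mean of at least 1 at 20 °C, the median was 0.79 at 37 °C and 1.45 at 20 °C, with a median difference of -0.71. At all 21458 eligible windows chosen in the same way, the median was 0.91 at 37 °C and 1.42 at 20 °C, with a median difference of -0.58. Both groups were chosen for high values at 20 °C, so a lower value in other libraries follows in part from the choice.

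With all libraries, edgeR called no member for H3K9me2 and DESeq2 did. By edgeR's quasi-likelihood test of IP against input at an adjusted p under 0.01, 0 members were called at 20 °C (0% of eligible windows), and at an unadjusted p under 0.05 it was 216 higher and 43 lower (32.8% and 6.53%, beside 13.2% and 8.77% of eligible windows). DESeq2 called 180 members higher and 1 lower at 20 °C (27.3% and 0.152%, beside 11.1% and 0.153%). At 37 °C, edgeR called 0 (0% of eligible windows), with 81 higher and 35 lower at an unadjusted p under 0.05 (12.3% and 5.31%, beside 8.00% and 2.49%). DESeq2 called 0 higher and 2 lower there (0% and 0.303%, beside 0.00306% and 0.252%). For the IP reads at 37 °C against 20 °C, edgeR and DESeq2 both called 0 (edgeR 0% of eligible windows), with 14 higher and 93 lower at an unadjusted edgeR p under 0.05 (2.12% and 14.1%, beside 0.829% and 2.93%).

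Leaving out a 20 °C library changed the edgeR counts, both over the members and over the genome. Without 20 °C replicate 1, 144 members were higher and 19 lower than input at 20 °C (21.9% and 2.88%, beside 7.51% and 5.96% of eligible windows), and 106 were higher and 61 lower at 37 °C (16.1% and 9.26%, beside 9.30% and 4.10%). Without 20 °C replicate 2, 232 were higher and 130 lower at 20 °C (35.2% and 19.7%, beside 14.1% and 39.2%), and 110 were higher and 61 lower at 37 °C (16.7% and 9.26%, beside 9.38% and 4.19%). For 37 °C against 20 °C, 133 members were then higher and 276 lower (20.2% and 41.9%, beside 49.6% and 15.4%), and without 20 °C replicate 1 the count was 0. In simulated counts of this design with all libraries, edgeR recovered 0 of 50 windows raised 4-fold in the 20 °C IP libraries, so the counts of 0 do not show that H3K9me2 was absent or the same.

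The inputs of the H3K9me2 experiment are independent of the H3K27ac inputs. The median log2 ratio of the 37 °C to the 20 °C inputs was -0.11 over the members and -0.16 over eligible windows, and with TMM scaling the fitted median over the members was 0.04. With all libraries, edgeR's quasi-likelihood test and DESeq2 called 0 members at an adjusted p under 0.01 (edgeR 0% of eligible windows). At an unadjusted edgeR p under 0.05 it was 4 higher and 3 lower (0.607% and 0.455%, beside 0.193% and 0.226%). Without 20 °C replicate 1, edgeR called 63 members higher and 0 lower at 37 °C (9.56% higher, beside 2.33% of eligible windows), so the inputs of these windows cannot be called equal at both temperatures.

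The 3 members with the most H3K9me2 at 20 °C show both marks at 1 place. On chromosome IV, the window from 1969836 to 1970335 had H3K9me2 enrichments of 1.97 and 1.61 at 37 °C and 3.51 and 2.30 at 20 °C. Its H3K27ac enrichment was 1.20, 1.301 and 1.05 in HS, 0.99, 1.01 and 0.64 in the met-2Δ pairs, 0.59, 0.24 and 0.89 in the met-2-CD pairs and -0.16, -0.26 and -0.45 in WT. Here each pair of both mutants lay above each WT pair, and the highest met-2Δ pair was just below the lowest HS pair. The window on chromosome III from 1209098 to 1209597 had 1.35 and 1.03 at 37 °C and 2.71 and 2.61 at 20 °C, with H3K27ac at 1.01, 1.83 and 1.13 in HS, 0.89, 1.06 and 0.83 in the met-2Δ pairs, 0.07, 0.28 and 0.80 in the met-2-CD pairs and -0.28, -0.42 and 0.25 in WT. The window on chromosome II from 3519999 to 3520498 had 2.26 and 1.99 at 37 °C and 3.22 and 2.15 at 20 °C, with H3K27ac at 1.01, 1.53 and 1.17 in HS, 0.67, 0.92 and 0.48 in the met-2Δ pairs, 0.13, 0.13 and 0.33 in the met-2-CD pairs and -0.03, 0.16 and 0.44 in WT. In these 2 windows met-2-CD overlapped WT, and the met-2Δ pairs lay above the WT pairs. In all 3, H3K9me2 stayed enriched in each library at 37 °C while each HS pair was acetylated, and the 2 marks were measured in separate libraries.

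The longest runs varied in H3K9me2. The run of 9 windows on chromosome V had a mean H3K9me2 enrichment of -0.13 and 0.20 at 37 °C and -1.69 and -1.32 at 20 °C. The run of 7 windows on chromosome III had 0.44 and 0.61 at 37 °C and 0.08 and -0.30 at 20 °C. The run of 5 windows on chromosome X had -0.31 and -0.74 at 37 °C and 0.43 and 0.90 at 20 °C. Higher in replicate 1 at 20 °C, the run of 6 windows on chromosome III had 0.32 and 0.63 at 37 °C and 1.12 and 0.01 at 20 °C. The run of 6 windows on chromosome II had -0.60 and -0.93 at 37 °C and 0.10 and 0.73 at 20 °C. On chromosome III, the run of 5 windows had -0.53 and -0.82 at 37 °C and -1.70 and -0.17 at 20 °C. Both 20 °C pairs were thus above 0 in 3 of the 6 runs. None of the 6 longest runs lay in an H3K9me2 domain.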

How the data were processed

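The authors used QuasR with bowtie on the ce10 assembly and deposited raw counts of uniquely mapped reads per 500-bp window for 24 H3K27ac and 8 H3K9me2 libraries. The members, lists and limits were chosen with earlier results of these data known. Groups and replicate numbers came from the labels. Counts were scaled by the nuclear totals to their mean, a pseudocount of 2 was added and IP was divided by the input of the same replicate. Windows of the mitochondrial genome were left out. Windows were tested on unscaled counts with edgeR 4.0.16 (R 4.3.3; glmQLFit, glmQLFTest, nuclear totals as library sizes) over all eligible windows, with Benjamini-Hochberg adjustment and a threshold of 0.01. All 24 H3K27ac libraries entered the fit of IP against input, the 12 IP libraries the fits between groups and the 8 H3K9me2 libraries the H3K9me2 fits. DESeq2 1.42.0, TMM, other limits and left-out replicates were alternatives. The tests were checked on simulated counts of 20000 windows: for met-2-CD IP over input, 46 of 50 windows raised 2-fold and 1 of 19800 unchanged windows were called. The named windows are the 6 longest runs, the 6 largest HS and WT differences, the 3 highest and 3 lowest in met-2-CD, the 3 highest in H3K9me2 at 20 °C and those nearest each limit. Tables were handled with Python 3.11.15 and pandas 2.3.3. MACS2 peaks were not used here.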

Additional observations from a re-analysis of the deposited data

How the results depend on the processing

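The number of heat-only windows, 659, followed the limits: it was 1740 with background scaling (194 shared), 1584 with a mean HS enrichment of at least 1, 292 and 1397 with WT limits of 0.25 and 0.75, and 438 with a met-2Δ limit of 0.5. Leaving out a pair of HS, met-2Δ or WT gave 631 to 1040 windows, the highest without HS replicate 3. The other 8 alternatives gave 604 to 804, among them the mean input of the group in place of the replicate's own (no replicate block), with 804 windows and 588 shared.

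For met-2-CD IP over input, 259 members were called, against 428 with TMM and 431 with DESeq2. Both raised the median log2 ratio of all windows, to -0.06 with TMM and -0.05 with DESeq2, against -0.31. Leaving out a met-2-CD replicate gave 80 to 185. A replicate block gave 261, and pairing each IP with its own input, chosen after seeing the data, 272. The met-2Δ calls against WT, 13, were 2 with TMM and 4 with DESeq2. For met-2-CD against WT, leaving out a replicate gave 0 in each fit, as did the replicate block.

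The counts of H3K9me2 calls were decided by library scaling and by the 20 °C replicates. At 20 °C it was 88 with totals that include the mitochondrial genome, 180 with DESeq2 and 0 to 232 with a replicate left out (144 without 20 °C replicate 1 and 232 without replicate 2). At 37 °C it was 22 with those totals and 0 to 110 with a replicate left out. For 37 °C against 20 °C, calls in either direction were 0 to 409, the highest without 20 °C replicate 2, and for the inputs 0 to 63, the highest without 20 °C replicate 1. A fit with 1 library in an arm assumes that it varies like the others. With a replicate block every H3K9me2 count was 0. With totals of all windows the members' median H3K9me2 enrichment was 0.97 at 37 °C and 0.78 at 20 °C, so their order turned round, against 0.29 and 0.47. With a pair left out it was 0.198 to 0.336 at 37 °C and 0.305 to 0.572 at 20 °C, and for H3K27ac in met-2-CD 0.372 to 0.455, against 0.416. The causes were not tested.

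Same-numbered IP and input libraries deviated together weakly, with r between 0.006 and 0.057 for H3K27ac and between 0.03 and 0.37 for H3K9me2, so the numbers were not used as blocks.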
